A study of Mus musculus with 17 samples.

Results

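Hemoglobin and the red cell program were followed through 9 of the 35285 genes listed for the cochlear RNA: the adult α globin genes Hba-a1 and Hba-a2, the adult β globin genes Hbb-bs and Hbb-bt, and Alas2, Slc4a1, Klf1, Epor and Tfrc. The members form a list of gene names, and each name matched exactly 1 row. Expression was given as FPKM, the number of sequenced fragments on a gene relative to the length of its exons and to all fragments counted in the library.

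The libraries came from the cochleae of 17 male C57BL/6J mice of wild-type genotype, aged 8 weeks, with 1 library per mouse, and they were collected 2 days after noise exposure (NE). The 3 mice of the control group received saline and no noise. The 7 mice of the NE group were exposed for 2 h to noise of 8 to 16 kHz at 100 dB, and whether they received saline is not given in the sources used here. The 7 mice of the brimonidine group received the same noise and brimonidine, a drug that activates α2-adrenergic receptors, by 3 intraperitoneal injections of 1 mg/kg on the day before, the day of and the day after exposure. No exposure-free brimonidine library was analysed here, so brimonidine was compared only in exposed mice. The labels give the cells as interstitial cells, while the authors' methods name cochleae and, in another section, basilar membrane tissue as the source of RNA. Coch, the gene of an abundant matrix protein of the inner ear, lay between 444 and 1039.6 FPKM. The neutrophil gene S100a9 lay between 3887 and 30212.6 FPKM and the bone gene Col1a1 between 126 and 521 FPKM. Slc26a5, the motor protein gene of outer hair cells, was at most at 0.858 FPKM. Which cells gave the RNA was not tested.

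Red cells arise in the bone marrow from precursors that respond to erythropoietin through its receptor, Epor, and take up iron through the transferrin receptor, Tfrc. Klf1 is the zinc finger factor that activates adult β globin and other red cell genes, Alas2 is the erythroid enzyme of the first and rate-limiting step of heme synthesis, and Slc4a1 is band 3, the anion exchanger that anchors the membrane skeleton. Reticulocytes, the young red cells in blood, have lost their nucleus but still carry globin mRNA, so a tissue that holds blood or marrow gives these transcripts. The cochlea is encased in bone and supplied by blood vessels. In bulk RNA of this kind, fewer cells of a type and less RNA per cell cannot be told apart.

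The β globin genes lie beside each other on the minus strand of chromosome 7 in GRCm38, Hbb-bs (ENSMUSG00000052305) from 103826534 to 103828096 and Hbb-bt (ENSMUSG00000073940) from 103812524 to 103813996. The α globin genes lie on the plus strand of chromosome 11, Hba-a1 (ENSMUSG00000069919) from 32283511 to 32284465 and Hba-a2 (ENSMUSG00000069917) from 32296489 to 32297298. Slc4a1 (ENSMUSG00000006574) lies further along chromosome 11, from 102348824 to 102366203, and Alas2 (ENSMUSG00000025270) lies on chromosome X from 150547375 to 150570638. Klf1 (ENSMUSG00000054191) lies on chromosome 8 from 84901928 to 84905291, Epor (ENSMUSG00000006235) on chromosome 9 from 21958897 to 21963506, and Tfrc (ENSMUSG00000022797) on chromosome 16 from 32608920 to 32632794. The values cover the exons of each gene, from 667 bases for Hba-a2 to 6185 for Tfrc.

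The globin genes of a pair are near-identical copies, and their split depends on how fragments were placed. Of the 455 windows of 100 bases along the Hba-a2 transcript, 339 (74.5%) also occurred letter for letter in the Hba-a1 transcript, with 1 shared run of 415 bases. The same held for 331 of 604 windows (54.8%) of Hbb-bt in Hbb-bs. The level of each single globin gene, that of Hba-a2 above all, is therefore uncertain, while the sum of the 4 globin genes is less exposed to this. In addition, 311 of the 2403 exon bases of Alas2 overlap exons of Apex2 on the opposite strand, and the strand setting of the counting is not given in the sources used here.

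As background, promoter sequence is shown for 6 of the 9 genes, and its part in their levels was not tested. Each run is 100 bases long, or 83 for Hbb-bs, reads 5′ to 3′ in the direction of the gene, comes from RefSeq on GRCm38.p6, and lies outside every exon annotated in GENCODE M21. For this reason the runs of Hbb-bt, Klf1 and Alas2 end 74, 55 and 43 bases before the RefSeq start, and the Hbb-bs run lies within the annotated span of its gene. Capitals mark 4 kinds of short motif searched on both strands. The GATA motif, the site of factors such as GATA1, was AGATAA or that word with a final G, and also TGATAA or that word with a final G. The CACCC type of box, bound by KLF factors, was CCNCNCCC with any base at each N. The other two were the CCAAT box and the TATA box, searched as TATAA. Matches of a motif may overlap each other, as the CACCC type does in the Epor run. The regions are chr7:103827929-103828011 on the minus strand for Hbb-bs, chr7:103813997-103814096 on the minus strand for Hbb-bt, chr11:32296389-32296488 for Hba-a2, chrX:150547275-150547374 for Alas2, chr8:84901828-84901927 for Klf1 and chr9:21963577-21963676 on the minus strand for Epor.
Hbb-bs: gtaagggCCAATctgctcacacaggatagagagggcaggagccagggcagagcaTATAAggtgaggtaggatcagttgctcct
Hbb-bt: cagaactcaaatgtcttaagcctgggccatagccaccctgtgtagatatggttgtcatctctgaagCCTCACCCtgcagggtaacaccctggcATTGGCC
Hba-a2: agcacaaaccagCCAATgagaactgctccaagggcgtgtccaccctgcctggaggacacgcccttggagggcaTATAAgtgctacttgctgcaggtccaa
Alas2: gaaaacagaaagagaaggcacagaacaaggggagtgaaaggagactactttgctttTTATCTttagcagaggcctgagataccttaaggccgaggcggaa
Klf1: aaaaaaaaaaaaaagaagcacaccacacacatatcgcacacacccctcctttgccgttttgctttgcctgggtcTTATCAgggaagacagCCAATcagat
Epor: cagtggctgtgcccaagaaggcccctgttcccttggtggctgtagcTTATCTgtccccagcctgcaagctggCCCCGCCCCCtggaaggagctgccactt
The last capital letters of the Hbb-bt run belong to a CCAAT that continues past its edge.

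A promoter was matched for 8 of the 9 members. In the 250 bases before the RefSeq start, a GATA motif occurred in 6 of the 8, Hba-a1, Hba-a2, Hbb-bs, Alas2, Klf1 and Epor, against 26.5% of all 32851 promoters in the same table. Tfrc, which has 2 annotated starts, held none before either start. In the last 100 bases, TATAA occurred in the 4 globin genes alone among the 8, against 10.2% of all promoters (in Hbb-bt past the end of the run shown), and CCAAT in those 4 and in Klf1, against 18.9%. A CACCC-type box lay in the last 100 bases of Alas2, Hbb-bs and Epor, against 31.4% of all promoters, and those of Alas2 and Hbb-bs fall outside the runs shown. Hba-a1 and Hba-a2 share 297 of the 300 bases in the table, so they count as 1 sequence rather than 2. The counts depend on the window. In the 250 bases TATAA occurred in 6 of the 8 (22.8% of all promoters), CCAAT in 6 (33.8%) and the CACCC type in 5 (45.9%). In the last 100 bases a GATA motif occurred in 3 (10.4%). These are matches of letters and not shown sites of binding.

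The 17 libraries held between 14457733 and 18288854 counted fragments, and the 4 globin genes took 0.133% to 0.821% of them. Control 2 stood apart from the rest. Its summed FPKM over 12 neutrophil genes was 10145, against 41028 to 66762 in the other 16 libraries, and over 12 cell cycle genes it was 219.9, against 347 to 529. Over the 10 bone genes it was 1686 and over the 15 cochlear genes 1582, the highest of all libraries in both. Genes that mark hindbrain neurons were higher in all 3 controls, with summed FPKM of 331, 832 and 330.5 over 10 genes, against 28.0 to 39.3 in the NE group and 26.7 to 111 in the brimonidine group. The main results of the members against the control group are therefore given with and without control 2, and those of other genes where stated. The part of these differences in the results was not tested.

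Hbb-bs, the major adult β chain, was the most abundant of the 9 genes. It stood at 1476, 5490 and 953 FPKM in controls 1, 2 and 3. In the NE group it ranged from 1106 to 3140 FPKM with a median of 1839, and in the brimonidine group from 1451 to 3033 with a median of 1725. Control 2 was the highest and control 3 the lowest of the 17 libraries, so that every exposed library fell between both. Hbb-bt, the other adult β chain, was again highest in control 2 and lowest in control 3. Its controls were 268, 1044 and 196 FPKM, the NE group ranged from 201 to 600.1 (median 342) and the brimonidine group from 246 to 525 (median 322).

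Hba-a1, which codes for the α chain, stood at 1019, 3845 and 542 FPKM in the controls. Its range was 771 to 2025 FPKM in the NE group (median 1276) and 984 to 2063 in the brimonidine group (median 1113). The second α gene, Hba-a2, was far lower, with 41.9, 203 and 23.4 FPKM in the controls. It ranged from 23.6 to 63.6 FPKM in the NE group (median 48.9) and from 35.4 to 104 in the brimonidine group (median 55.5). For both genes the exposed libraries had their top value in brimonidine 3 and their lowest in NE 7, and the NE and brimonidine ranges overlapped.

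Alas2 stood at 33.2, 117 and 22.9 FPKM in the controls, at 24.1 to 67.2 in the NE group (median 38.7) and at 33.8 to 63.7 in the brimonidine group (median 38.4). Slc4a1 stood at 42.1, 102 and 23.4 FPKM in the controls. It ranged from 32.6 to 106 FPKM in the NE group (median 46.1) and from 47.4 to 84.4 in the brimonidine group (median 59.7). Slc4a1 was the only member whose highest value was not in control 2, since NE 1 lay above it. All 7 brimonidine values lay above the NE median, and NE 6 and NE 7 were the lowest exposed libraries at 33.2 and 32.6 FPKM.

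Klf1, the transcription factor, stood at 9.54, 23.9 and 5.20 FPKM in the controls. In the NE group it ranged from 6.08 to 17.7 FPKM (median 9.43) and in the brimonidine group from 8.89 to 18.4 (median 11.7). Epor, the receptor, was the least abundant member, with 6.47, 14.2 and 4.69 FPKM in the controls, 5.36 to 11.4 in the NE group (median 6.91) and 5.59 to 11.5 in the brimonidine group (median 7.27). Even these low levels rested on at least 128 fragments for Klf1 and 150 for Epor in every library, where the counting error at the mean fragment count was 5.76% and 6.16%, against a coefficient of variation between mice of 28.3% to 40.1% for Klf1 and 24.0% to 28.1% for Epor within the exposed groups.

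Tfrc behaved apart from the other 8. It is used by every dividing cell for iron uptake, and red cell precursors carry it at high level. Its controls were 30.1, 43.9 and 37.6 FPKM, and control 3, the lowest library for the other 8 genes, was the third highest for Tfrc. The NE group ranged from 21.2 to 35.7 FPKM (median 28.9) and the brimonidine group from 28.5 to 38.6 (median 34.1). Thus 2 of the 7 brimonidine libraries lay above every NE library, while 4 of the 7 NE libraries lay below every control.

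**Figure D1:**
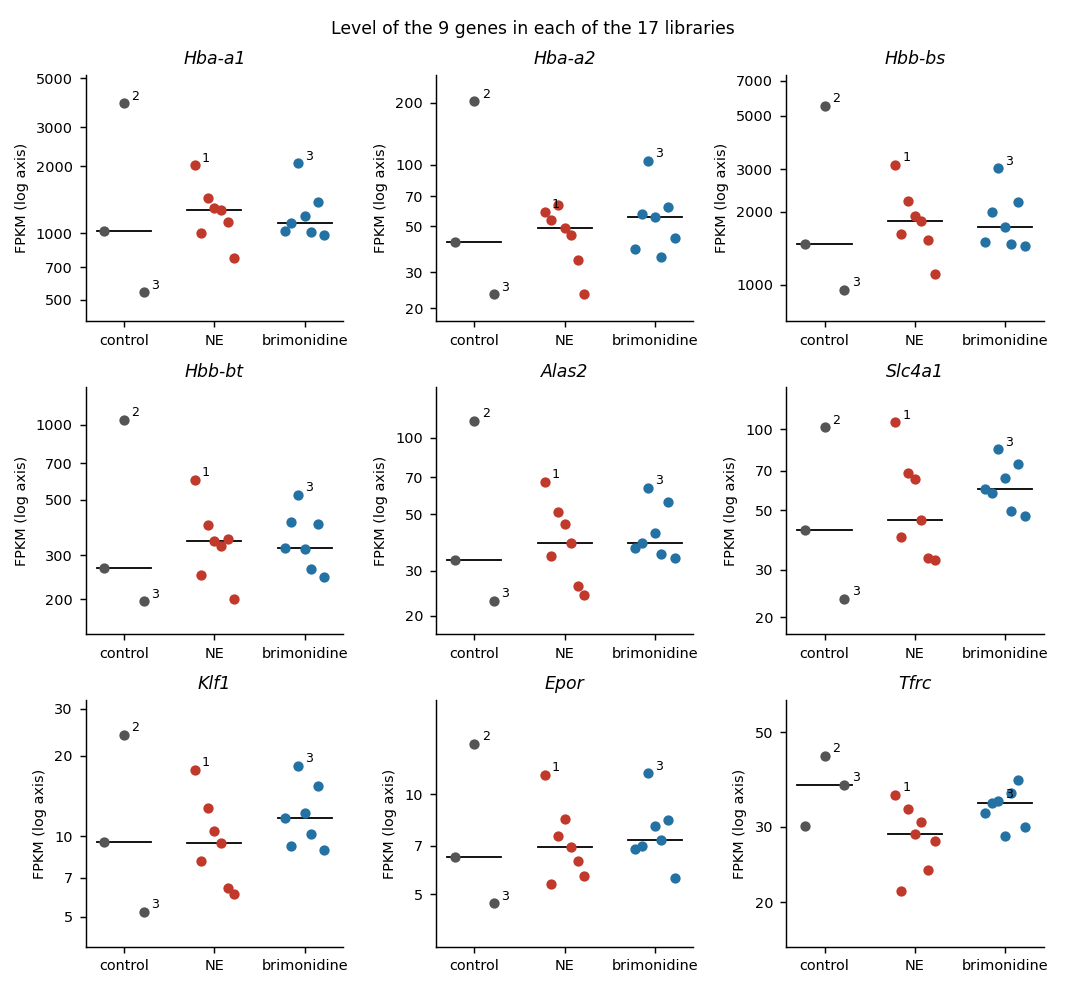
FPKM of each of the 9 genes on a log axis, 1 point per library, with the median of each group as a line and control 2, control 3, NE 1 and brimonidine 3 numbered. Control 2 is the highest library in 8 of the 9 panels and control 3 the lowest in 8, while the NE and brimonidine points overlap in every panel.

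By the median over all 17 libraries the order of levels, on the per-length FPKM scale, was Hbb-bs (1725), Hba-a1 (1121), Hbb-bt (328), Slc4a1 (58.0), Hba-a2 (48.9), Alas2 (38.4), Tfrc (32.4), Klf1 (10.2) and Epor (6.97). Each of the first 3 exceeded the next gene in all 17 libraries, and so did Tfrc over Klf1 and Klf1 over Epor. The middle of the order was not fixed: Slc4a1 exceeded Hba-a2 in 12 libraries, Hba-a2 exceeded Alas2 in 15 and Alas2 exceeded Tfrc in 14. The embryonic globin genes Hbb-bh1, Hbb-y and Hba-x stayed at or under 0.186 FPKM in all libraries.

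Spread between mice was large for this gene group. Within the exposed groups, the SD of log2(FPKM + 1) between mice was 0.41 for Hba-a1, 0.43 for Hbb-bs, 0.44 for Hbb-bt and Alas2, 0.43 for Klf1, 0.48 for Slc4a1 and 0.50 for Hba-a2. These values exceeded those of 92.7% to 95.1% of the 15707 genes tested, whose median SD was 0.15. Epor, with an SD of 0.31, exceeded 87.7% of the genes, and Tfrc, with 0.21, exceeded 73.0%. A few libraries kept a similar place from gene to gene, while others moved: among the exposed mice NE 1 and brimonidine 3 were in the top 3 of all 17 libraries for 7 and 8 of the 9 genes, and NE 7 was in the bottom 3 for 8, but NE 6 ranged from rank 7 for Hbb-bt to rank 16 for Tfrc and brimonidine 2 from rank 4 for Hbb-bt to rank 12 for Klf1.

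To find out whether noise changed these genes, the NE and control groups were compared with limma on log2(FPKM + 1). None of the 9 members was called at an adjusted p under 0.05 and a log2 fold change of 1 or more in either direction, and none passed on the adjusted p alone, against 5.76% and 14.1% of the 15950 genes tested. At an unadjusted p under 0.05 there was 1 member, Tfrc, against 32.9% of all genes, and voom on the recovered fragments also called 0 members, with 1 at an unadjusted p under 0.05 (5169 of all genes). Quantile normalization gave 1 member at that level as well (5640 of all genes), while median-ratio scaling (5388) and equal totals without the globin genes (4507) left 0. No member had groups that did not overlap, against 18.3% of all genes. The log2 fold changes ran from -0.38 for Hba-a2 to 0.14 for Slc4a1, with a median of -0.16 beside -0.04 for all genes, and 8 of the 9 were negative (7 after median-ratio scaling, where Hba-a1 turned, and 8 after quantile normalization, where Slc4a1 and Epor changed places). Of all genes, 43.9% were positive, 53.9% after median-ratio scaling and 57.9% after quantile normalization.

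The intervals of these differences were wide. For Hbb-bs the log2 fold change was -0.11 with a standard error of 0.50 and a 95% confidence interval from -1.22 to 0.99 (adjusted p = 0.892), so neither a lower nor a higher level by a factor of about 2 was outside it. For Alas2 it was -0.20, with an interval from -1.20 to 0.79 (adjusted p = 0.783), and for Slc4a1 0.14, from -0.85 to 1.13 (adjusted p = 0.850). The signs turned with the controls. Without control 3 all 9 log2 fold changes were negative, with Hba-a1 at -0.69, Hbb-bs at -0.64 and Slc4a1 at -0.34. Without control 2, 8 of the 9 were positive, where 47.1% of all genes were, with Hba-a1 at 0.72, Hbb-bs at 0.62 and Slc4a1 at 0.70, and again none was called or passed the adjusted p alone, against 2.38% and 6.74% of all genes. Tfrc was negative in both cases.

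Tfrc had the smallest p of the 9 and did not pass. Mean Tfrc was 28.8 ± 5.05 FPKM after NE (SD, n = 7) and 37.2 ± 6.93 without exposure (SD, n = 3), a log2 fold change of -0.36 with a standard error of 0.16 and an interval from -0.72 to -0.0031 (unadjusted p = 0.0484, adjusted p = 0.149, limma). The exact two-sided permutation test gave p = 0.0833, where 0.00833 is the smallest p that 7 against 3 allows. Without control 2 the log2 fold change was -0.24 (exact permutation p = 0.306).

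Brimonidine was then compared with NE alone, 7 mice against 7. Again 0 of the 9 members passed, but here no gene of the 15707 tested passed both thresholds (0%) and 1 passed the adjusted p alone (0.00637%). At an unadjusted p under 0.05, 1 member, Tfrc, passed in limma and in voom, against 5.77% of all genes, and 0 passed under median-ratio scaling (843 of all genes), quantile normalization (965) or equal totals without the globin genes (643), and no member had groups that did not overlap, against 0.14%. Of the 9 log2 fold changes 8 were positive, with a median of 0.13, and 57.7% of all genes were positive too, with a median of 0.01. Hba-a1 was the negative one at -0.02 and turned positive under 2 of the 3 rescalings, and Hbb-bs turned negative under median-ratio scaling.

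For the globin genes and Alas2, the intervals of the difference between brimonidine and NE kept within a factor of 2 in both directions. The log2 fold change was 0.02 for Hbb-bs (interval -0.44 to 0.48), -0.02 for Hba-a1 (-0.45 to 0.41), 0.04 for Hbb-bt (-0.42 to 0.50), 0.25 for Hba-a2 (-0.26 to 0.76) and 0.13 for Alas2 (-0.32 to 0.58). The larger values belonged to Klf1, at 0.29 (interval -0.15 to 0.74, adjusted p = 0.901), and Slc4a1, at 0.26 (-0.24 to 0.75, adjusted p = 0.920). Epor differed by 0.08 (-0.24 to 0.40).

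Tfrc was again the member with the smallest p. With brimonidine its mean was 33.4 ± 3.44 FPKM (SD, n = 7) against 28.8 ± 5.05 for NE alone (SD, n = 7), and 5 of the 7 brimonidine libraries lay within the NE range. The log2 fold change was 0.22 with a standard error of 0.10 and an interval from 0.0044 to 0.44 (unadjusted p = 0.0461, adjusted p = 0.859, limma). The exact two-sided permutation test gave p = 0.0670, where 7 against 7 allows 0.000583 at the smallest. The difference therefore did not hold after adjustment over all genes.

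Compared with the control group, the brimonidine group again gave 0 of 9 members past both thresholds and 0 on the adjusted p alone, against 5.73% and 15.8% of the 15947 genes tested. No member was under an unadjusted p of 0.05 in limma or in voom, against 35.6% of all genes in limma, and none had groups that did not overlap, against 19.4%. Here 3 of the 9 log2 fold changes were positive (2 when totals without the globin genes were made equal, where Epor turned) and 45.8% of all genes were, and the median was -0.08 beside -0.03 for all genes. This comparison shares its controls with that of NE against control, and its brimonidine libraries with that against NE. Without control 2, 8 of the 9 were positive, where 49.2% of all genes were, and 1 member, Slc4a1, passed the adjusted p alone, against 9.48% of all genes, while 0 passed both thresholds, against 3.01%.

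Slc4a1 had a mean of 62.7 ± 13.2 FPKM in the brimonidine group (SD, n = 7) and 55.7 ± 40.9 in the controls (SD, n = 3), which gave a log2 fold change of 0.40 (interval -0.38 to 1.17, adjusted p = 0.438). Without control 2 the control mean was 32.7 FPKM over 2 mice, and every brimonidine library lay above both. The log2 fold change was then 0.95 (interval 0.41 to 1.49, adjusted p = 0.0344), under the minimum of 1, and the exact permutation p was 0.0278, the smallest that 7 against 2 allows. Without control 3 in its place the log2 fold change was -0.087 (adjusted p = 0.858), so the direction rested on which control was left out. Alas2 also had all 7 brimonidine libraries above controls 1 and 3, where its log2 fold change was 0.61 (adjusted p = 0.149). With all controls, 19.4% of all genes had groups that did not overlap. The share without control 2 was not computed, so these separations have no base rate beside them.

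**Figure D2:**
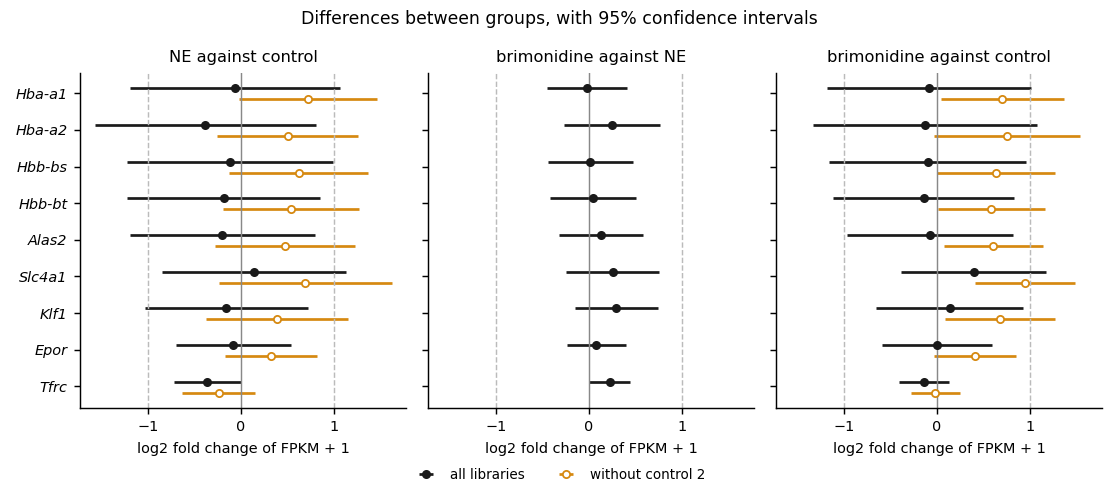
Log2 fold change of FPKM + 1 for the 9 genes in each comparison, with 95% confidence intervals from limma, for all libraries (filled) and without control 2 (open), and dashed lines at the minimum of 1 in either direction. Leaving out control 2 turns 7 of the 9 genes from negative to positive in NE against control and 5 in brimonidine against control, and no member passed both thresholds either way.

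Quantile normalization moved the median log2 fold change of all genes by 0.11 in NE against control and by 0.10 in brimonidine against control, and no scaling brought a member past the thresholds. Over all alternatives the adjusted p of the members ran from 0.0630 to 0.999 in NE against control, from 0.602 to 0.9999 in brimonidine against NE and from 0.0344 to 0.9995 in brimonidine against control.

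Most of the members varied together over mice. Across the 14 exposed libraries Pearson's r of log2(FPKM + 1) with Hbb-bs was 0.97 for Hba-a1, 0.94 for Hbb-bt, 0.94 for Alas2, 0.88 for Epor, 0.87 for Hba-a2, 0.87 for Slc4a1 and 0.85 for Klf1, but 0.50 for Tfrc. Spearman's rho ran from 0.77 for Klf1 to 0.92 for Hba-a1, with 0.51 for Tfrc. Without the 2 libraries farthest from the median, NE 1 and brimonidine 3, r was 0.94 for Hba-a1, 0.89 for Alas2, 0.71 for Klf1, 0.68 for Epor and 0.39 for Tfrc. The points share library depth and RNA composition, and the values are a description without a test.

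The same was seen within each exposed group. Among the 7 NE libraries r with Hbb-bs was 0.96 for Klf1, 0.94 for Slc4a1 and 0.96 for Alas2, and among the 7 brimonidine libraries it was 0.80, 0.89 and 0.93. With Alas2 in place of Hbb-bs, r over the 14 libraries was 0.96 for both Klf1 and Slc4a1, 0.88 for Epor and 0.62 for Tfrc. Klf1 and Slc4a1 thus followed Alas2 more closely than they followed Hbb-bs, by 0.96 to 0.85 and 0.96 to 0.87, a difference that was not tested.

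**Figure D3:**
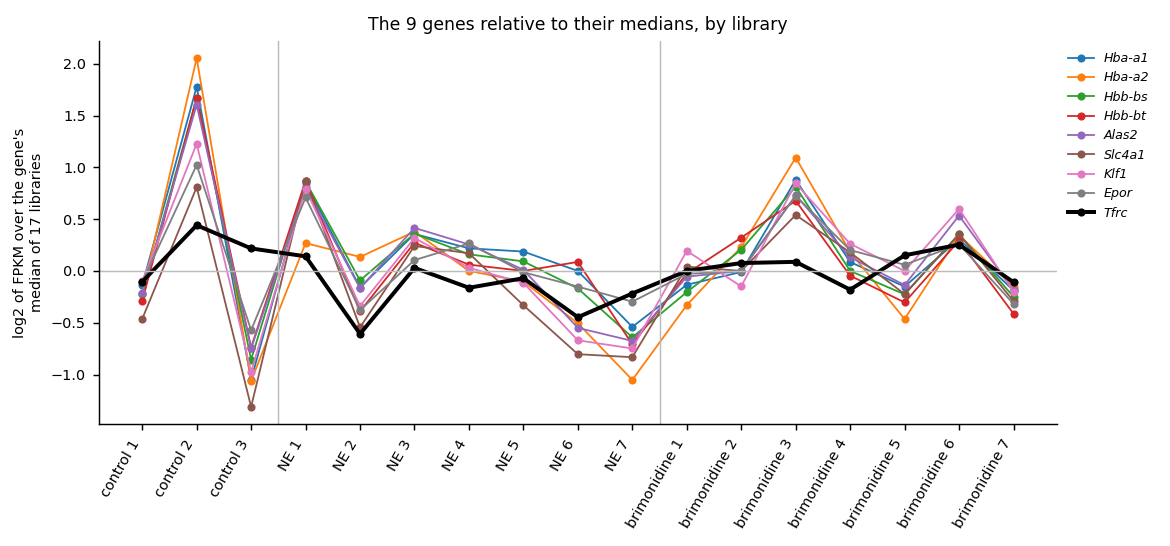
Log2 of each gene's FPKM over its own median of the 17 libraries, 1 line per gene with Tfrc in bold black, and vertical lines between the groups. The lines of the genes other than Tfrc lie high together in control 2, NE 1 and brimonidine 3 and low together in control 3 and NE 7, while Tfrc stays within a narrower band.

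**Figure D4:**
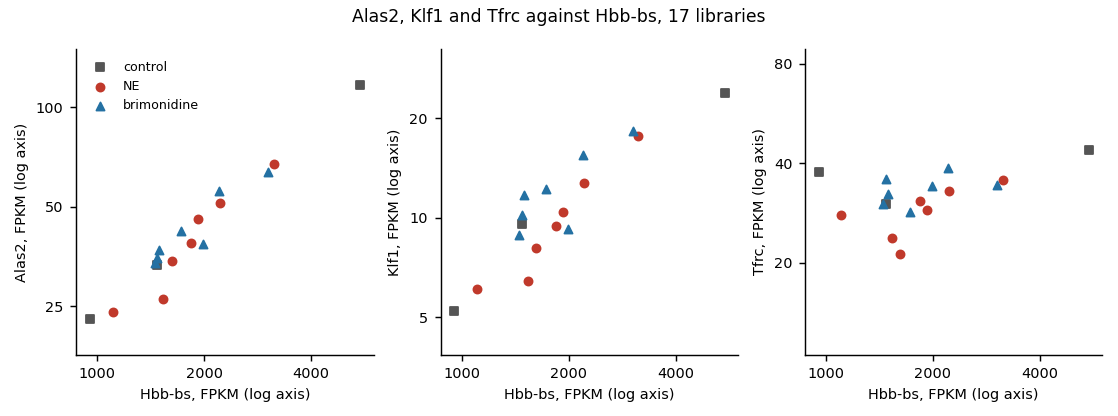
FPKM of Alas2, Klf1 and Tfrc against that of Hbb-bs in the 17 libraries, both on log axes, with the same fold range on each vertical axis. Alas2 and Klf1 are higher where Hbb-bs is higher (r of 0.94 and 0.85 over the 14 exposed libraries), and Tfrc less so (0.50).

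Ratios between members within a library remove what all of them share. The α genes summed to 0.488 to 0.619 of the β genes in FPKM over the 17 libraries, with medians of 0.608 in the control, 0.596 in the NE and 0.600 in the brimonidine group. Hba-a2 was 2.91% to 5.35% of Hba-a1, and Hbb-bt was 15.5% to 22.7% of Hbb-bs. By contrast, the summed FPKM of the 4 globin genes ran from 1715 in control 3 to 10583 in control 2.

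Alas2, Slc4a1, Klf1, Epor and Tfrc were also read as a percent of Hbb-bs. Klf1 was 0.646%, 0.436% and 0.546% of Hbb-bs in the 3 controls, 0.419% to 0.575% in the NE group (median 0.541%) and 0.463% to 0.780% in the brimonidine group (median 0.693%). In 6 of the 7 brimonidine libraries the ratio lay above every NE library, and brimonidine 2 was the exception. Slc4a1 was 2.17% to 3.39% of Hbb-bs in the NE group (median 2.95%) and 2.78% to 3.99% in the brimonidine group (median 3.37%), with 2 of 7 libraries above every NE library. For Alas2 the ranges were 1.71% to 2.38% (median 2.14%) and 1.93% to 2.53% (median 2.37%), with 3 of 7 above. Epor was 0.331% to 0.513% in the NE group (median 0.376%) and 0.351% to 0.493% in the brimonidine group (median 0.385%), with none above every NE library. Tfrc was the least even, from 0.80% in control 2 to 3.95% in control 3, and again no brimonidine library lay above every NE library. The ratios were looked at after the levels had been seen and were given no test.

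**Figure D5:**
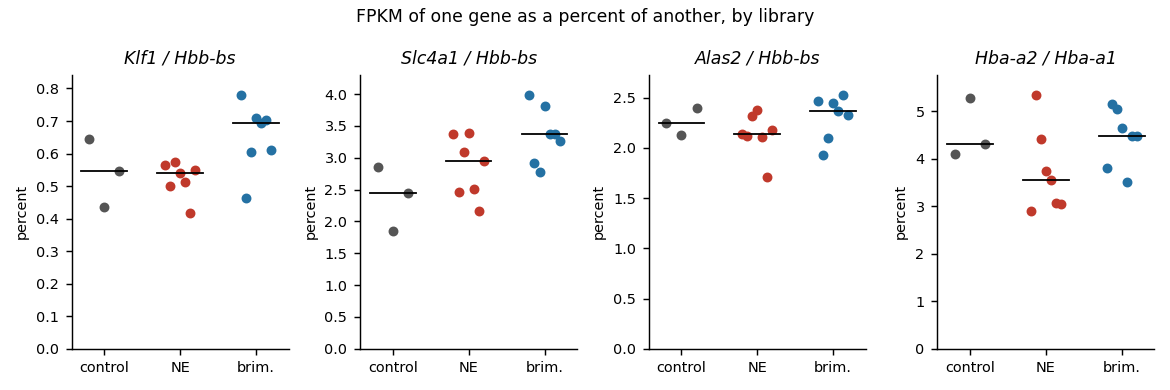
FPKM of Klf1, Slc4a1 and Alas2 as a percent of Hbb-bs, and of Hba-a2 as a percent of Hba-a1, with 1 point per library and the median of each group as a line. For Klf1, 6 of the 7 brimonidine points lie above all NE points.

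The genes whose pattern was most like that of a member were sought among 15698 other genes over the 14 exposed libraries. Among those nearest to Hbb-bs were Bpgm (r = 0.96), the bisphosphoglycerate mutase of red cells, Tmcc2, Ube2l6 and Trim10. Nearest to Klf1 were Rhag (r = 0.98) and Epb42 (r = 0.97), both proteins of the red cell membrane, then Hemgn, Ranbp10 and Tmcc2. Nearest to Alas2 were Tmcc2 (r = 0.96), Slc43a1, Ctse, Kel and Sowaha. Tfrc had other neighbors: Kbtbd8 (r = 0.94), Uros (r = 0.91), an enzyme of heme synthesis, Zfp672, Glrx2 and Sh3tc2.

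An r with Alas2 of at least 0.8 was found for 76 of the 15698 genes (0.484%). Among lists of genes by role, it was found for 12 of 15 genes of the erythroid membrane and cytoskeleton, 11 of 16 late erythroid and reticulocyte genes, 4 of 11 genes of heme synthesis, 2 of 12 erythroid transcription factors, 1 of 14 genes of iron handling and none of 9 genes of erythropoietin signaling. It was found for none of the genes of megakaryocytes (10), neutrophils (12), B cells (9), cochlea (11), bone (10), hindbrain neurons (5) or the cell cycle (12). The median r with Alas2 was 0.54 for the B cell genes and 0.52 for the erythroid transcription factors, beside 0.91 for the membrane genes. With Tfrc it was found for 83 of all genes (0.529%), 1 of the 15 membrane genes, 2 of the 16 late erythroid genes and 2 of the 11 heme genes, whose median r with Tfrc was 0.74, 0.64 and 0.59, against 0.08 for all genes.

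The wider red cell pathway was read from 7 lists of 93 gene names, of which 87 were listed and 78 could be tested. With all libraries, 0 were called by limma in any of the 3 comparisons, against 5.76%, 0% and 5.73% of all genes. Without control 2, Hemgn, a nuclear protein gene of blood precursors, was called in brimonidine against control (log2 fold change 1.04, adjusted p = 0.00555), against 3.01% of all genes, and 69 of the 78 were then higher (88.5%), where 49.2% of all genes were. With all libraries 57 of the 78 (73.1%) were higher in that comparison, where 45.8% of all genes were. In NE against control 43 (55.1%) were higher, where 43.9% of all genes were, and without control 2 it was 62 (79.5%), where 47.1% were. With all libraries, an unadjusted p under 0.05 was reached by 16 of the 78 in NE against control, against 32.9% of all genes. It was reached by 4 in brimonidine against NE and 20 in brimonidine against control, against 5.77% and 35.6% of all genes. On the adjusted p alone, which 14.1% of all genes passed in NE against control, Kit and Kitl passed and were lower after NE than in controls. Kit (log2 fold change -0.61, adjusted p = 0.00781) is the gene of the receptor for stem cell factor, and Kitl (-0.80, adjusted p = 0.0159) is the gene of stem cell factor itself. Both were lower without control 2 too (-0.46 and -0.48), and both are named after their values were seen. All 10 hindbrain neuron genes were lower in the same comparison (median log2 fold change -3.99), and their part in the values of Kit and Kitl was not tested. Without control 1, 11 of the 78 passed, 7 higher and 4 lower after NE, against 24.3% of all genes. No listed gene passed in brimonidine against NE.

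Brimonidine against control gave 6 such genes of the 78, against 15.8% of all genes, and they are named after their values were seen. The count turned on the controls: it was 13 of 78 (16.7%) without control 2, 12 of them higher in the brimonidine group, against 9.48% of all genes, 14 (17.9%) without control 1, against 30.1%, and 5 (6.41%) without control 3, against 14.1%. With all controls, higher in the brimonidine group were the transcription factor genes Lmo2 (log2 fold change 0.40) and E2f2 (0.62), the heme-degrading enzyme gene Hmox1 (0.49) and the hemoglobin scavenger receptor gene Cd163 (0.29). Of these 4, Cd163 also passed without control 2 (log2 fold change 0.34, adjusted p = 0.0380). The other log2 fold changes were then 0.36 for Lmo2, 0.32 for E2f2 and 0.38 for Hmox1. In the same comparison with all controls, 12 of 12 cell cycle genes (median log2 fold change 0.56, 5 past the adjusted p) and 12 of 12 neutrophil genes (median 0.79) were higher too. Without control 2 these medians fell to 0.28 for the cell cycle genes, with 0 past the adjusted p, and to 0.17 for the neutrophil genes. The part of these cells in the values of the 4 genes was not tested. Lower were Kit (-0.62) and Ank1 (-0.90, adjusted p = 0.0490), the gene of erythrocyte ankyrin, which is also expressed in neurons. The hindbrain neuron genes were 10 of 10 lower in this comparison, and the part of those cells in the difference of Ank1 was not tested. Without control 2, Ank1 was at -0.41 (adjusted p = 0.0673) and Kit at -0.47 (adjusted p = 0.0142, limma).

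Some of the lists' most abundant genes are given as examples. Tmem14c, a transporter of heme precursors, had 96.2 ± 9.33 FPKM in the brimonidine group, 91.0 ± 10.1 in the NE group (SD, n = 7 each) and 82.2 ± 13.1 in the control group (SD, n = 3). Car2, a carbonic anhydrase of red cells and other cells, had 108 ± 22.8, 90.3 ± 28.0 and 111 ± 74.7 FPKM in the same order. Fth1, the ferritin heavy chain that stores iron in most cells, had 2150.4 ± 266, 2254 ± 336 and 2068 ± 317 FPKM. None of these 3 genes passed in any comparison, with adjusted p from 0.178 to 0.974 (limma).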

How the data were processed

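Total RNA from cochleae of 17 mice was extracted with TRIzol by the authors, libraries were made with a TruSeq stranded mRNA kit and sequenced on an Illumina NovaSeq instrument. Per the labels, Trimmomatic, HISAT2, Cufflinks and HTSeq were used with build mm10, and their versions and roles are not given in the sources used here. The deposited FPKM values, made by the authors, divide the fragments on a gene by exon length and by the library total. With exon lengths of GENCODE M21, whose positions were identical for all 9 members and for 93.9% of 35207 genes, the values of 32423 of 35029 genes above 0 were whole fragments within 0.02, and 35028 were once missing lengths were solved from the data. This gave totals of 14457733 to 16080796 fragments in the control, 15769236 to 18288854 in the NE and 16624437 to 18224926 in the brimonidine libraries.

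Groups came from the sample titles. Genes that reached 1 FPKM in 3 or more libraries of a comparison were tested on log2(FPKM + 1) with limma 3.58.1 in R 4.3.3 (lmFit, eBayes with a trend). Each model held the 2 groups concerned, and p-values were adjusted over all its genes by Benjamini-Hochberg. Fold changes are of FPKM + 1 and so understate those of low genes. Called means an adjusted p under 0.05 with a log2 fold change of 1 or more in either direction. Exact two-sided permutation tests of the group means were run for each member in Python 3.11.15 with numpy 2.4.6 and pandas 2.3.3. DESeq2, the authors' test, needs counts and was not applied, and limma's voom was run on the recovered fragments. The fits were tested on simulated data. Figures were drawn with matplotlib 3.10.9.

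The members, the gene lists, the tests and the alternatives were chosen with earlier results of these data known. All 9 members are named in every comparison, and of each list up to 4 called genes or, where none was called, the 2 with the highest mean FPKM may be named. For likeness, the 5 genes with the highest Pearson's r with Alas2, Hbb-bs, Klf1 and Tfrc over the 14 exposed libraries are named. Not every gene that these rules give is reported here. Other genes were named after their values were seen, which the text states. Alternatives were a pseudocount of 0.1, no filter, median-ratio and quantile scaling, equal totals without the globin genes, all libraries in 1 model, a replicate block, voom, no minimum fold change and each library left out. Nothing says that the replicate numbers mark shared litters or days. P-values judge a difference between group means against the spread between mice.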

Additional observations from a re-analysis of the deposited data

Results flagged for a closer look

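In the brimonidine group, brimonidine 3 stood apart for both α globin genes by Dixon's criterion, in which the gap to the nearest library is divided by the whole range of the group. For Hba-a1 it had 2063 FPKM and a gap of 0.627 of the range, and for Hba-a2 it had 104 FPKM and a gap of 0.614, both above the critical value of 0.568 for 7 libraries. Of the 18 groups of 7 libraries examined for the 9 genes, these 2 were singled out, and chance singles out about 1 group in 20. Both genes share most of their sequence, so the 2 are not separate observations.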

How the results depend on the processing

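No member passed both thresholds under any alternative in any of the 3 comparisons. Settings were varied over 27 log2 fold changes. Adding 0.1 in place of 1, testing without the filter, all 17 libraries in 1 model and voom on the recovered fragments changed no direction. Median-ratio scaling turned Hba-a1 to 0.023 in NE against control and Hbb-bs to -0.0016 in brimonidine against NE. Quantile normalization turned Slc4a1 to -0.064 and Epor to 0.013 in NE against control, and Hba-a1 to 0.0077 in brimonidine against NE. Equal totals without the globin genes turned Hba-a1 to 0.0056 in brimonidine against NE and Epor to -0.0097 in brimonidine against control. The cause was not tested.

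With 1 library left out, 39 of 306 log2 fold changes turned. In NE against control the ranges were -0.69 to 0.72 for Hba-a1, -1.03 to 0.50 for Hba-a2, -0.64 to 0.62 for Hbb-bs, -0.66 to 0.54 for Hbb-bt, -0.67 to 0.48 for Alas2, -0.34 to 0.70 for Slc4a1, -0.62 to 0.39 for Klf1 and -0.38 to 0.33 for Epor. In brimonidine against NE they were -0.15 to 0.10 for Hba-a1, -0.10 to 0.15 for Hbb-bs, -0.078 to 0.18 for Hbb-bt and -0.0079 to 0.18 for Epor. In brimonidine against control they were -0.71 to 0.71 for Hba-a1, -0.78 to 0.75 for Hba-a2, -0.62 to 0.64 for Hbb-bs, -0.62 to 0.59 for Hbb-bt, -0.54 to 0.61 for Alas2, -0.087 to 0.95 for Slc4a1, -0.33 to 0.68 for Klf1 and -0.30 to 0.41 for Epor. The high ends against the control group came without control 2 and the low ends without control 3.

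Of the other erythroid list genes, leaving out 1 library gave 0 to 1 call in NE against control, 0 in brimonidine against NE and 0 to 2 in brimonidine against control. With no minimum fold change there were 2 calls in NE against control and 6 in brimonidine against control. In the latter, a pseudocount of 0.1 gave 1 call and voom gave 1, both Ank1. The calls without a control library were Ank1, Pim1 and, without control 2, Hemgn, at 1.04 (adjusted p = 0.00555, limma).

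Between libraries of the same replicate number, the correlation of deviations from the group means ran from -0.22 to 0.08. Values from so few libraries cannot show whether the numbers mark a pairing. With the replicate number as a block, 0 genes were called in NE against control, 0 in brimonidine against NE and 236 in brimonidine against control, none of them a member. The block turned Hba-a1 to 0.15, Hbb-bs to 0.18, Hbb-bt to 0.037, Alas2 to 0.13, Klf1 to 0.17 and Epor to 0.019 in NE against control. It turned Hba-a1 to 0.048, Hba-a2 to 0.066, Hbb-bs to 0.075, Hbb-bt to 0.11 and Alas2 to 0.0033 in brimonidine against control. With 3 controls, only the numbers 1 to 3 bear on the blocked fits against controls.

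Without NE 1 and brimonidine 3, an alternative chosen after seeing the data, r with Hbb-bs dropped to 0.68 for Epor, 0.71 for Klf1, 0.76 for Slc4a1 and 0.39 for Tfrc, and median-ratio scaling moved no r by 0.1. The controls, 3 mice with control 2 apart, limit what can be said of noise itself.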

Other observations

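The gene lists differed in direction without any call in brimonidine against NE. The log2 fold change was positive for 15 of 15 genes of the erythroid membrane and cytoskeleton (median 0.22), 14 of 16 late erythroid genes (median 0.19), 10 of 11 heme synthesis genes (median 0.09), 11 of 12 erythroid transcription factors (median 0.12) and 12 of 14 genes of iron handling (median 0.08), where 57.7% of all genes were positive with a median of 0.01. Some lists of other cells also went 1 way, with 10 of 10 genes of megakaryocytes and platelets positive (median 0.16), 11 of 11 of the cochlea (median 0.10) and 5 of 5 of hindbrain neurons (median 0.12). Genes of erythropoietin signaling gave 3 positive of 9, B cells 1 of 9, bone 5 of 10, neutrophils 8 of 12 and the cell cycle 9 of 12. None of these genes passed the adjusted p in that comparison. Members of a list share the same libraries and are not independent.

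In control 2 the lists of red cell and other blood cell genes did not move as one. The summed FPKM of the 4 globin genes was 10583 there, against 1715 to 5824 in the other 16 libraries, while the neutrophil sum was 10145, against 41028 to 66762. The sums over 10 genes of megakaryocytes and platelets and over 10 B cell genes were 759 and 120 FPKM, both the highest of all libraries. The sum over 15 membrane and cytoskeleton genes was 324 FPKM in control 2, against 111 to 238 elsewhere, that over 12 erythroid transcription factors was 198, against 191 to 294, and that over 10 genes of erythropoietin signaling was 143, the lowest of all libraries. Among the exposed libraries NE 6 had the highest neutrophil sum, 66762, and NE 1 the highest globin sum, 5824.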
